A study of Mus musculus with 9 samples.

Results

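Heat shock proteins and DnaJ co-chaperones were described in 9 poly(A) RNA libraries of mouse heart. The members are the protein-coding genes whose symbols begin with Hspa, Hspb, Hspd, Hspe, Hsph, Hsp90a or Dnaj, together with the transcription factor gene Hsf1. The endoplasmic reticulum genes Hspa5, Dnajb9, Dnajb11 and Dnajc3 were left out. This rule found 70 of the 55401 genes in the deposited count table: 12 Hspa, 10 Hspb, 2 Hspd and Hspe, 1 Hsph, 2 Hsp90a, 4 Dnaja, 11 Dnajb and 27 Dnajc genes, and Hsf1. The rule used no measured value.

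All libraries came from C57BL/6 mice, an inbred laboratory strain, and the groups of 3 libraries follow the treatment labels. In the Ctrl group the treatment was PBS, which is buffered saline. In the AngII group it was Ang II (angiotensin II), a vasoconstrictor hormone known to enlarge the heart. Kmo_AngII libraries carry the label Kmo+Ang II with Ang II as the treatment, and the labels do not explain Kmo or name an allele or agent for it. The labels state no age, sex, dose or duration. They also do not say whether each library is from its own animal, so p-values measure only the spread between these libraries. The sample titles form a second grouping that crosses the treatments. WC stands in the titles of Ctrl replicate 1 and AngII replicates 1 and 2, WA in those of Ctrl replicates 2 and 3 and AngII replicate 3, and KKA in those of the 3 Kmo_AngII libraries. What the letters mean is not given. Whether a title or a treatment label was exchanged between libraries was not tested, so groups below are the libraries as labelled or as titled. Levels are given below in this order of libraries within WC, WA and Kmo_AngII.

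Chaperones bind proteins that are unfolded or partly folded. HSP70 proteins (Hspa genes) hold and release such clients in a cycle driven by ATP, DnaJ proteins deliver clients and start ATP hydrolysis, and HSP110 proteins (Hsph1, Hspa4, Hspa4l) exchange the nucleotide. HSP90 proteins act late in folding of kinases and receptors, HSP60 and its lid HSP10 (Hspd1 and Hspe1) fold proteins inside mitochondria, and small heat shock proteins (Hspb genes) hold unfolded clients without ATP. Several small heat shock proteins are abundant in heart muscle, where they bind to filaments and the Z-disc. The factor HSF1 switches on the inducible members after heat and other stress that unfolds proteins.

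Total counts per library ranged from 56827533 to 73194268. Mitochondrially encoded genes took 30.3% to 55.5% of them, and the members 0.203% (Kmo_AngII replicate 3) to 0.819% (Kmo_AngII replicate 1). Ventricular muscle markers were high in all libraries, with a summed level of 16524 to 43913 CPM (each count as a rate over the TMM-scaled library size, per 1000000 counts, as for all levels here). The atrial muscle markers Myl7, Myl4 and Sln stood apart in Ctrl replicate 2, at 47.7, 65.2 and 35.0 CPM, and in Kmo_AngII replicate 3, at 469, 385 and 289 CPM, against at most 2.89 CPM elsewhere. On the first principal component of all genes, the WA libraries and Kmo_AngII replicate 1 lay on 1 side, and the other 5 libraries on the opposite side.

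Per kilobase of the longest coding transcript, the highest member over the 9 libraries was Hspb6 (379 CPM per kb), a small heat shock protein of muscle. Hspb7 followed at 373 CPM per kb and Hspa8, the constitutive cytosolic HSP70, at 344 CPM per kb. Hsp90ab1, the constitutive HSP90, stood at 233 CPM per kb, Hspb1 at 153, Hspb8 at 109 and Hspa9, the mitochondrial HSP70, at 69.9 CPM per kb. The inducible HSP70 genes Hspa1a and Hspa1b were low on this scale, at 1.80 and 1.36 CPM per kb, and Dnajb1 stood at 3.14 CPM per kb. In all, 64 members had enough counts for the test in 9 libraries. The 6 that did not were Hspb9, Dnajb7, Dnajb8, Dnajc5b, Dnajc5g and Dnajc22, with at most 13 counts in any library, and Dnajb8 and Dnajc5g had no count in any.

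The members differed in how steady they were. Dnajc7, a co-chaperone that binds both HSP70 and HSP90, had the narrowest range, with its highest library 1.22 times its lowest. Dnajc14, Dnajc5 and Dnajb14 had ratios of 1.31, 1.32 and 1.32. Hspb6 had the widest range of the tested members with a count in every library, at 12.2 times, followed by Hspa1b at 9.56, Dnajc6 at 8.67, Hspa1a at 7.55, Hspb1 at 6.54 and Hspb7 at 6.07 times. Dnajc6 had only 4 to 24 counts in a library. Ctrl replicate 3 held the highest level of 20 of the 64 tested members and Kmo_AngII replicate 1 that of 16, while Kmo_AngII replicate 3 held the lowest level of 24.

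**Figure D1:**
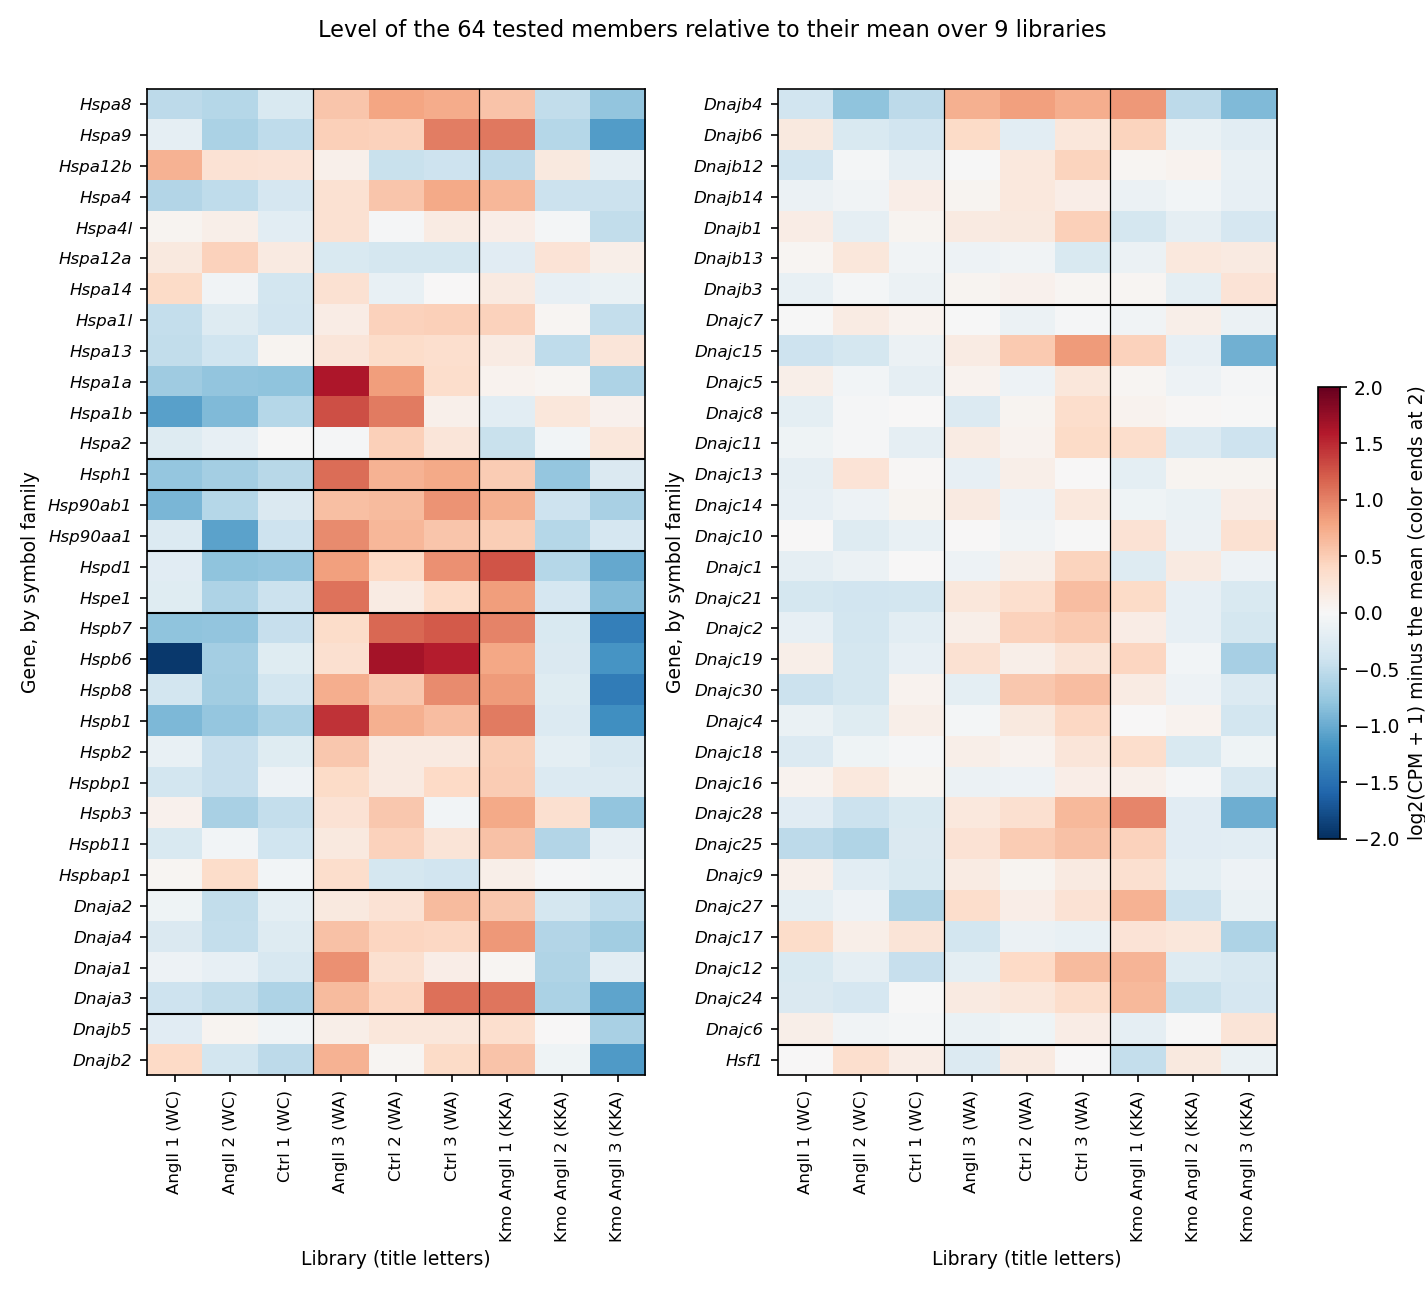
Level of each of the 64 tested members (vertical axis, by symbol family) in each library (horizontal axis, title letters in brackets), as log2(CPM + 1) minus the mean of that gene over the 9 libraries; red is above and blue below the mean. Most Hspa, Hsph, Hsp90a, Hspd, Hspe, Hspb and Dnaja genes are red in the 3 WA libraries and Kmo_AngII replicate 1 and blue in the WC libraries, while most Dnajc genes are pale.

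The largest differences among the members lay between the WA and WC libraries. The fit of only these 6 libraries, chosen because an earlier analysis had found the Kmo_AngII libraries to be spread, tested 63 members and called 27 higher in WA and 1 lower (edgeR quasi-likelihood test, Benjamini-Hochberg adjusted p under 0.05 over 18111 genes). Over all genes tested, 8.06% were called higher and 5.25% lower. The median log2 difference, WA minus WC, was 0.65 over the tested members and -0.01 over all genes. All WA libraries lay above all WC libraries for 36 members and below them for 5, against 17.1% and 17.6% of all genes. The grouping crosses the treatments: with the treatment label as a covariate, 26 members were called, of which 25 were among the 28. The share of all genes called in that fit is not given here. The calls of 12 members held without any 1 library (Hspa1a, Hspa1b, Hspa4, Hsph1, Hsp90aa1, Hsp90ab1, Hspd1, Hspb1, Hspb7, Hspb8, Dnaja3 and Dnajb4), and without AngII replicate 2 the other 16 calls were lost. With library size as the only scaling, which put the median of all genes at -0.32, Hspa1a, Hspa1b, Hspb1 and Hspb6 were the 4 members called (6.35%), all higher, against 0.342% of all genes called higher. These are bulk samples, in which a lower share of a cell type and less RNA per cell cannot be told apart.

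Of the 12 members on a textbook list of HSF1-inducible genes, 11 were called higher in WA, against 8.06% of all genes. This list includes Hspa8 and Hsp90ab1, which are named above as constitutive and were both called. For all 12, every WA library lay above every WC library, against 17.1% of all genes. The list was drawn up with earlier results of these data known, so these counts describe it and are no test. The inducible HSP70 gene Hspa1a stood at 2.06, 2.28 and 2.11 CPM in WC, at 8.51, 5.80 and 15.5 CPM in WA, and at 4.65, 4.51 and 2.51 CPM in Kmo_AngII. Every WC library was below every other library, and AngII replicate 3 was the highest. The log2 difference was 2.22 ± 0.329 (SE, 3 libraries against 3, adjusted p 0.00395 by edgeR), a 4.67-fold higher level in WA. Hspa1b, its neighbour and near-copy, stood at 1.81, 0.966 and 1.26 CPM in WC, at 7.54, 3.49 and 9.23 CPM in WA, and at 2.60, 3.89 and 3.43 CPM in Kmo_AngII. Its log2 difference reached 2.35 ± 0.376 (SE, edgeR adjusted p 0.00465). Of the 50-base windows of the Hspa1a transcript, 58.8% also occur in that of Hspa1b, so the split of counts between this pair is uncertain, and 7.95% occur in Hspa1l.

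Hsph1, an HSP110 exchange factor, had the smallest adjusted p of all members. It stood at 12.6, 10.8 and 11.6 CPM in WC, at 31.4, 32.8 and 42.5 CPM in WA, and at 27.7, 10.8 and 15.5 CPM in Kmo_AngII. The WA libraries were the highest 3, with Kmo_AngII replicate 1 next, and the log2 difference was 1.63 ± 0.178 (SE, edgeR adjusted p 0.00134). The other 2 HSP110 genes differed from each other: Hspa4 was called higher (36.8 to 43.9 CPM in WC, 69.5 to 95.3 CPM in WA), and Hspa4l was not called (26.4 to 33.5 against 30.2 to 38.2 CPM).

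Both HSP90 genes were called higher in WA. The inducible Hsp90aa1 stood at 51.5, 56.7 and 32.2 CPM in WC, at 109, 102 and 133 CPM in WA, and at 96.7, 46.1 and 54.3 CPM in Kmo_AngII. Its log2 difference was 1.31 ± 0.228 (SE, edgeR adjusted p 0.00602). Hsp90ab1 stood at 433, 280.2 and 357 CPM in WC, at 818, 987 and 804 CPM in WA, and at 871, 397 and 336 CPM in Kmo_AngII. Only Kmo_AngII replicate 1 of the Kmo_AngII libraries lay within or close to the WA range for these genes.

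Among the Hspa genes, 6 of 12 were called higher and 1 lower. Hspa8 stood at 614, 527 and 510.3 CPM in WC, at 1306, 1258 and 1113 CPM in WA, and at 1121, 536 and 436 CPM in Kmo_AngII, so that the groups WA and WC were far apart. Hspa9 stood at 131, 165 and 121 CPM in WC, at 257, 381 and 260.5 CPM in WA, and at 389.6, 126 and 85.4 CPM in Kmo_AngII. It and Hspa1l, known from testis (5.53 to 6.57 against 9.01 to 11.6 CPM), were also called. The exception in direction was Hspa12a, a distant relative of the HSP70 proteins, at 32.1, 32.5 and 39.1 CPM in WC and 22.0, 21.9 and 22.7 CPM in WA. The difference, on the log2 scale, was -0.63 ± 0.157 (SE, edgeR adjusted p 0.0244), and the call was lost without any 1 of 4 libraries (Ctrl replicates 1, 2 and 3 and AngII replicate 2). Its relative Hspa12b, known from endothelium, stood at 72.3, 97.8 and 73.1 CPM in WC, at 43.6, 44.6 and 64.3 CPM in WA, and at 41.5, 69.0 and 52.7 CPM in Kmo_AngII. Every WA library was below every WC library, but the gene did not pass the test.

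**Figure D2:**
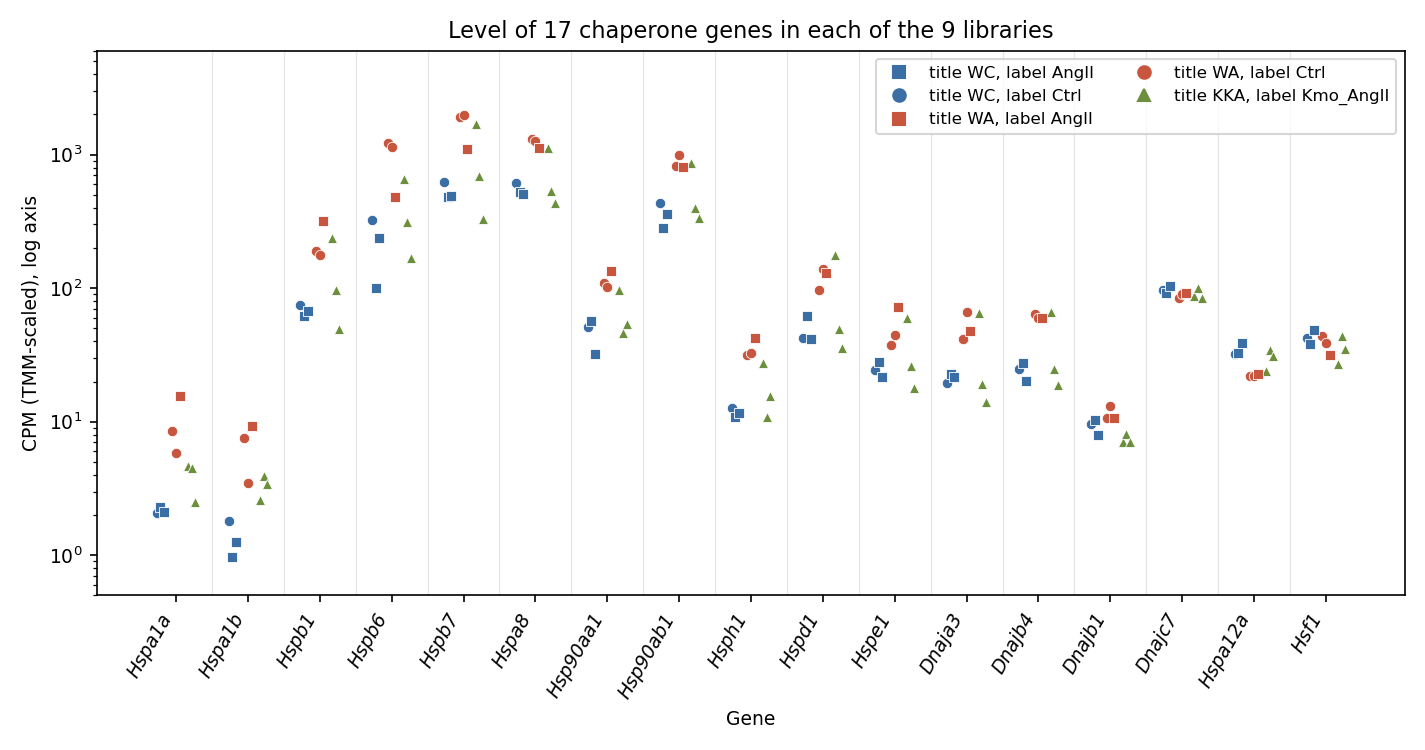
Level in CPM (vertical axis, log scale) of 17 members (horizontal axis) in each of the 9 libraries; color gives the title letters, with WC left, WA in the middle and KKA right within each gene, and the shape gives the treatment label. The WA points lie above the WC points for all genes from Hspa1a to Dnajb4, with 1 Kmo_AngII point near them for most. Dnajc7 varies little, Hsf1 overlaps between WA and WC, and Hspa12a is lower in WA.

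The mitochondrial pair Hspd1 and Hspe1, which lie next to each other in the genome, moved together. Hspd1 stood at 42.3, 62.4 and 41.3 CPM in WC, at 97.1, 139 and 130.03 CPM in WA, and at 177, 49.2 and 35.6 CPM in Kmo_AngII, with a difference on the log2 scale of 1.34 ± 0.219 (SE, edgeR adjusted p 0.00495). Hspe1 stood at 24.5, 28.1 and 21.5 CPM in WC, at 37.6, 44.2 and 72.0 CPM in WA, and at 60.3, 26.3 and 17.9 CPM in Kmo_AngII. For Hspd1, Kmo_AngII replicate 1 was the highest of the 9 libraries and replicate 3 the lowest. Over all 10 members that act in mitochondria, 6 were called higher, 10 had a positive difference, and the median log2 difference was 0.84. Dnaja3, the mitochondrial DnaJ partner of Hspa9, stood at 19.6, 22.6 and 21.5 CPM in WC and at 41.5, 66.6 and 47.7 CPM in WA, with a log2 change of 1.303 ± 0.193 (SE, edgeR adjusted p 0.00395). Of the 4 not called, Dnajc11 (28.9 to 32.5 against 34.7 to 43.3 CPM) did not overlap, and Dnajc4, Dnajc19 and Dnajc30 did.

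Of the 9 tested Hspb-symbol genes, 6 were called higher, and of the 6 muscle small heat shock proteins, 5 were. Hspb1, also known as HSP25 in mouse, stood at 75.3, 62.3 and 67.8 CPM in WC, at 191, 179 and 321 CPM in WA, and at 239.5, 96.5 and 49.1 CPM in Kmo_AngII. The WC values lay close together, and the Kmo_AngII values ranged from below WC to within WA. The log2 difference was 1.76 ± 0.245 (SE, edgeR adjusted p 0.00336). Hspb6, which binds filament proteins of muscle, stood at 326, 100.1 and 238 CPM in WC, at 1223, 1145 and 478 CPM in WA, and at 659.7, 314 and 169 CPM in Kmo_AngII. Within WA and within WC, the AngII libraries lay below the Ctrl libraries. This order also held in Hspb7, Hspa8, Hsp90ab1, Dnajc15 and Dnajc30, and it did not hold in Hspb1 or Hspb8. It was picked out after the values were seen. How many members or genes show it is not given, and a part of the treatment in it was not tested. The log2 difference of Hspb6, 2.11 ± 0.484 (SE, edgeR adjusted p 0.0249), had the largest SE of the called members. The Hspb6 call was lost without Ctrl replicate 2, Ctrl replicate 3 or AngII replicate 2 and with no low-count filter.

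Hspb7, a filament-binding small heat shock protein, stood at 623, 486 and 493 CPM in WC, at 1899.8, 1998 and 1095 CPM in WA, and at 1693, 689 and 329 CPM in Kmo_AngII. Its log2 difference was 1.65 ± 0.281 (SE, edgeR adjusted p 0.00548). Hspb8, which acts with Bag3 in removing damaged proteins, stood at 135, 134 and 107 CPM in WC, at 252, 336 and 288 CPM in WA, and at 312, 147 and 65.3 CPM in Kmo_AngII. In each of these genes the lowest of all 9 libraries was Kmo_AngII replicate 3, which also held the lowest summed level of ventricular muscle markers. Hspb2, found in skeletal and heart muscle, stood at 15.9, 16.9 and 13.5 CPM in WC, at 21.6, 21.5 and 27.9 CPM in WA, and at 27.1, 16.4 and 15.1 CPM in Kmo_AngII (WA minus WC, log2 0.63 ± 0.178 SE, edgeR adjusted p 0.0389). Hspb3 was not called (2.79 to 5.25 against 4.67 to 7.61 CPM). Hspbp1, an exchange factor for HSP70 that shares only the start of the symbol, stood at 6.06, 4.91 and 4.49 CPM in WC, at 7.63, 8.95 and 8.94 CPM in WA, and at 9.80, 5.29 and 5.27 CPM in Kmo_AngII (log2 0.74 ± 0.203 SE, edgeR adjusted p 0.0348).

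The DnaJ genes are given by class. All 4 Dnaja genes, the class closest to bacterial DnaJ, were called higher. Of these, only the Dnaja3 call held whichever library was left out. Dnaja1, a main partner of cytosolic HSP70, stood at 38.5, 45.2 and 43.3 CPM in WC, at 61.1, 53.3 and 91.9 CPM in WA, and at 50.0, 31.6 and 41.9 CPM in Kmo_AngII (WA minus WC, log2 0.71 ± 0.212 SE, edgeR adjusted p 0.0469). Dnaja2, of the same class, stood at 87.2, 93.5 and 70.4 CPM in WC, at 122, 155 and 114 CPM in WA, and at 146, 77.6 and 69.6 CPM in Kmo_AngII (log2 0.65 ± 0.194 SE, edgeR adjusted p 0.0475). Dnaja4 stood at 52.7, 51.7 and 45.5 CPM in WC, at 86.1, 85.1 and 95.6 CPM in WA, and at 116, 42.0 and 38.7 CPM in Kmo_AngII. In all of these genes WA lay above WC without overlap, least clearly in Dnaja1.

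Only 1 of the 8 tested Dnajb genes was called, Dnajb4, a partner of cytosolic HSP70. It stood at 24.7, 27.4 and 20.1 CPM in WC, at 64.1, 60.2 and 59.4 CPM in WA, and at 66.2, 24.7 and 19.0 CPM in Kmo_AngII, with a difference on the log2 scale of 1.36 ± 0.169 (SE, edgeR adjusted p 0.00233). Dnajb5 stood at 59.2, 52.9 and 64.6 CPM in WC, at 72.9, 73.3 and 68.0 CPM in WA, and at 79.0, 62.8 and 39.4 CPM in Kmo_AngII, close together but without overlap between WA and WC. Dnajb2, known from neurons and muscle, overlapped, at 28.7, 55.3 and 31.9 CPM in WC, at 43.0, 54.8 and 67.9 CPM in WA, and at 62.5, 39.2 and 18.5 CPM in Kmo_AngII. Whether the DnaJ classes differed from each other was not tested.

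Dnajb1, the HSP40 protein of the heat shock response, was the one gene of the HSF1-inducible list that did not pass. It stood at 9.57, 10.3 and 7.98 CPM in WC, at 10.7, 13.2 and 10.6 CPM in WA, and at 7.00, 8.07 and 7.08 CPM in Kmo_AngII. Each WA library lay above each WC library, but by little, and the log2 difference was 0.32 ± 0.185 (SE, edgeR adjusted p 0.274). All 3 Kmo_AngII libraries were below all Ctrl libraries, with a log2 difference, Kmo_AngII minus Ctrl, of -0.59 ± 0.210 (SE, edgeR adjusted p 0.998).

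Of the 24 tested Dnajc genes, 5 were called higher and none lower: Dnajc2, Dnajc15, Dnajc21, Dnajc25 and Dnajc28. Dnajc25 had the smallest adjusted p of them, at 7.65, 6.32 and 5.90 CPM in WC, 14.0, 14.9 and 11.8 CPM in WA and 13.5, 8.01 and 8.05 CPM in Kmo_AngII (log2 difference 1.05 ± 0.188 SE, edgeR adjusted p 0.00681). The call of Dnajc25 was lost without AngII replicate 2. Dnajc2, which sits on the ribosome, stood at 15.0, 15.7 and 13.5 CPM in WC and at 24.7, 25.7 and 19.1 CPM in WA (log2 0.66 ± 0.174 SE, edgeR adjusted p 0.0285). Dnajc21, which acts in ribosome assembly, stood at 14.9, 15.0 and 14.6 CPM in WC and at 24.9, 30.3 and 22.8 CPM in WA (log2 0.82 ± 0.166 SE, edgeR adjusted p 0.0108). Dnajc28 stood at 7.33, 7.85 and 6.63 CPM in WC and at 11.9, 15.2 and 10.9 CPM in WA (log2 0.81 ± 0.190 SE, edgeR adjusted p 0.0183). In Kmo_AngII these 3 genes stood at 19.7, 15.6 and 13.5 CPM, at 25.5, 17.3 and 15.5 CPM, and at 19.3, 7.78 and 4.26 CPM, each highest in replicate 1.

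The most abundant Dnajc genes were Dnajc7, Dnajc5 and Dnajc15. Dnajc7 stood at 97.0, 91.6 and 103 CPM in WC, at 84.5, 91.1 and 91.3 CPM in WA, and at 87.8, 99.7 and 85.1 CPM in Kmo_AngII, a narrow range that did not pass the test. Dnajc5, a vesicle protein, stood at 37.0, 45.2 and 40.1 CPM in WC, at 39.0, 48.9 and 44.0 CPM in WA, and at 43.1, 39.1 and 41.2 CPM in Kmo_AngII, with overlap. Dnajc15, of the inner mitochondrial membrane, stood at 36.5, 29.7 and 31.0 CPM in WC, at 57.9, 73.1 and 44.7 CPM in WA, and at 55.5, 35.6 and 20.1 CPM in Kmo_AngII, and was among those called. Of the 6 tested members of the endoplasmic reticulum, Dnajc25 alone was called, and the median log2 difference of these 6 was 0.37.

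Hsf1 itself stood at 42.7, 38.3 and 48.3 CPM in WC, at 43.6, 38.7 and 31.5 CPM in WA, and at 27.3, 44.0 and 34.8 CPM in Kmo_AngII. The groups overlapped, and the log2 difference, WA minus WC, was -0.17 ± 0.176 (SE, edgeR adjusted p 0.561). These are transcript levels, and HSF1 is known to be switched on at the protein level.

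**Figure D3:**
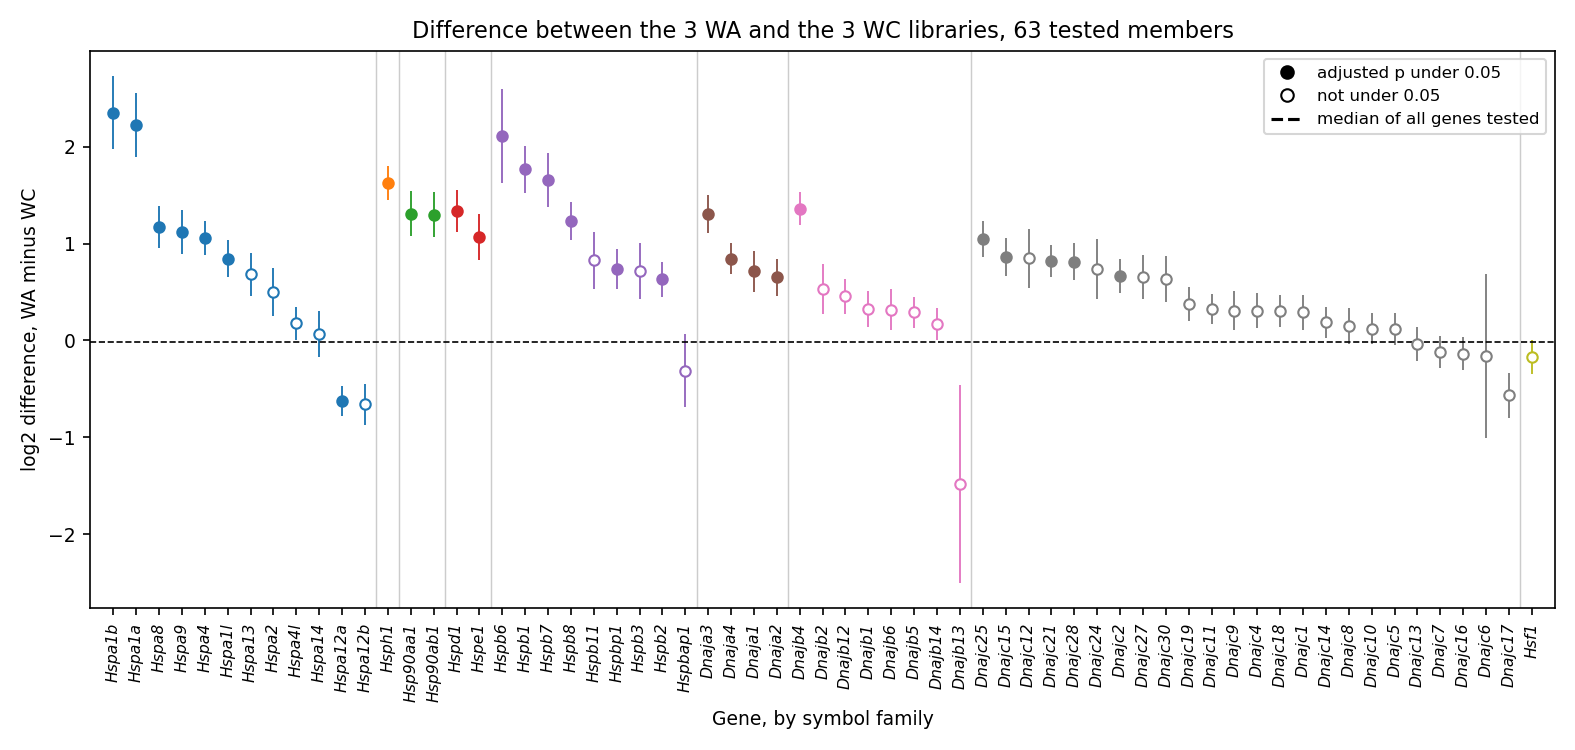
The log2 difference between the 3 WA and the 3 WC libraries (vertical axis) for the 63 tested members (horizontal axis, by symbol family, each family in its own color); bars are 1 SE, filled circles have an edgeR adjusted p under 0.05, and the dashed line is the median of all genes tested. All filled circles lie above the line except Hspa12a, and the filled share is high in Dnaja, Hsp90a, Hspd and Hspe and low in Dnajb and Dnajc.

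Promoter sequences were searched for heat shock elements, the binding motif of HSF1, as a planned description. Whether HSF1 had a part in the differences between WA and WC was not tested. RefSeq windows on GRCm38.p6, from 250 bases before to 50 bases after a gene's start, were found for 55 of the 70 members. The motif was 3 alternating units, GAANNTTCNNGAA or TTCNNGAANNTTC, which are each other's reverse complement and so cover both strands. It occurred in 4 members (7.27%), namely Hspd1, Hspe1, Hsph1 and Dnajb6, and in 0.662% of the 27025 genes in the table. The windows of Hspd1 and Hspe1 overlap and hold the same matches, so these 4 members stand for 3 separate stretches. Of the members called higher in WA, 3 of 21 held the 3-unit motif (14.3%, in 2 separate stretches). Of the other tested members 1 of 29 held it (3.45%). The shorter forms of 2 units, GAANNTTC or TTCNNGAA, which read the same on both strands and lie within the longer motif, were searched after the values were seen. They occurred in 16 members (29.1%) and in 17% of all genes. Of the members called higher in WA, 11 of 21 held them (52.4%), and of the other tested members 4 of 29 did (13.8%). The split by call was not tested for either motif length. With overlapping windows counted as 1, the 16 members are 15 stretches and the 11 are 10. A match is a description of letters in the window and not a bound site.

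The 250 bases before the start are shown for the genes that the results turn on, with the matched units in capitals and positions counted from the start site as 1, with no 0. Hspa1a and Hspa1b are shown because they differ in 3 of the 250 bases and each hold 1 match of 2 units, at position -104. Hspb1 holds 2 such matches at -117 and -97, and Dnajb1, which was not called, holds none in this window.
Hspa1a (chr17:34972157-34972406, minus strand): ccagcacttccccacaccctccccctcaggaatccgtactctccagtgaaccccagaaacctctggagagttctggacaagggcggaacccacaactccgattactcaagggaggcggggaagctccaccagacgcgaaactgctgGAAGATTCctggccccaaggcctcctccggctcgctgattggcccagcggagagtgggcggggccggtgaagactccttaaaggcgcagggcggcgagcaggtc
Hspa1b (chr17:34959239-34959488, minus strand): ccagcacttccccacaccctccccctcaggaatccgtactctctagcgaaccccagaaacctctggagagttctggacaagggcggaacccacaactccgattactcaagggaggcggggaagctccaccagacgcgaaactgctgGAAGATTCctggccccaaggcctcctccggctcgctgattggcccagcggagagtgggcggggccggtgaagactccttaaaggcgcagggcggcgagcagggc
Hspb1 (chr5:135887669-135887918, plus strand): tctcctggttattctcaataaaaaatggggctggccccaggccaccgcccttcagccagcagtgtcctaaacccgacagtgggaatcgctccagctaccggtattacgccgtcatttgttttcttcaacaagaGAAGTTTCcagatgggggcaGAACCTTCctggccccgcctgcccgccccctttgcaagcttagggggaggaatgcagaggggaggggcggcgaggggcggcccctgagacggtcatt
Dnajb1 (chr8:83607925-83608174, plus strand): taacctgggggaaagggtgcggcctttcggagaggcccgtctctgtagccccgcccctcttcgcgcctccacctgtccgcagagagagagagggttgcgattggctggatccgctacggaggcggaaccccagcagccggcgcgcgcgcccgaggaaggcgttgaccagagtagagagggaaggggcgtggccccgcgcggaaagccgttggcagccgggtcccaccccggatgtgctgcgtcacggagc

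The 3-unit motif is shown for Hspe1, Hsph1 and Dnajb6. Hspe1 and Hspd1 are transcribed away from each other, and their windows of 300 bases share 285 bases, read on opposite strands. The same 2 overlapping matches lie in both and begin at -89 and -84 of Hspe1. In Hsph1 the match begins at base 16 of the transcript, and 30 bases around it are shown. Dnajb6 holds a match at -46 although it was not called between WA and WC (20.3 to 30.5 against 23.0 to 34.9 CPM).
Hspe1 (chr1:55087898-55088147, plus strand): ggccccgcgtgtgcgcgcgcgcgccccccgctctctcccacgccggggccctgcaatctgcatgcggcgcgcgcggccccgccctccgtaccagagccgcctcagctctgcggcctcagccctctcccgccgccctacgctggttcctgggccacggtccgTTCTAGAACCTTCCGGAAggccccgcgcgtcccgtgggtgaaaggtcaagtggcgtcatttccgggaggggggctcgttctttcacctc
Hsph1 (chr5:149636279-149636308, minus strand): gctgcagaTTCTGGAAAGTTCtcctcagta
Dnajb6 (chr5:29735648-29735897, plus strand): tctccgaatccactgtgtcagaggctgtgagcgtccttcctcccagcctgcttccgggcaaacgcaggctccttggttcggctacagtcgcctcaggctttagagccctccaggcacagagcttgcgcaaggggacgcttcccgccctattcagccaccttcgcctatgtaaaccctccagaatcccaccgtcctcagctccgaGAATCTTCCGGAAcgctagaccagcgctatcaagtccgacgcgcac

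Partners of the members outside the symbol families were read from the same fit of 6 libraries. All 8 subunits of TRiC, the cytosolic chaperonin, were called higher in WA, with a median log2 difference of 0.72 and the smallest adjusted p for Cct5. Of 11 HSF1 response genes outside the families, 7 were called higher and none lower; Stip1, which links HSP70 to HSP90, stood at 24.8 to 35.3 CPM in WC and 66.0 to 74.2 CPM in WA. Cryab, the small heat shock protein next to Hspb2 in the genome, stood at 457 to 554 CPM in WC and 1112 to 1199 CPM in WA. Some genes stand in more than 1 of these lists. Of 20 HSP90 co-chaperones, 5 were called higher, Cacybp with the smallest p, and 1 lower, Unc45a. Of 10 HSP70 partners 3 were called higher, of 8 other mitochondrial chaperones 3 (Trap1, Grpel1 and Clpb), and of 6 prefoldin subunits 1, with none lower in these lists. Of the 4 tested HSF factors and regulators, Hsbp1 was called higher and Hsf4 lower (6.36 to 9.19 against 2.83 to 4.28 CPM). The genes left out by the rule, Hspa5, Dnajb9, Dnajb11 and Dnajc3, were all 4 called higher.

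Other features moved with the WA and WC libraries, and their part in the differences of the members was not tested. Acta1, the skeletal muscle actin, chosen here after its values were seen, stood at 11.5, 11.3 and 17.4 CPM in WC, at 686, 678 and 617 CPM in WA, and at 633, 39.6 and 13.0 CPM in Kmo_AngII. Myosin genes of fast skeletal muscle (Myh1, Myh2 and Myh4) were at or near 0 in every library, at no more than 0.178 CPM. Of 6 skeletal muscle markers 3 were tested and 2 called higher (Acta1 and Ckm). Tnnt3, the other tested marker, had a log2 difference of -0.75 and was not called. The 6 summed to 299 to 407 CPM in WC, 1394 to 1749 in WA and 186.7 to 1674 in Kmo_AngII, nearly all from Acta1 and Ckm. Of 8 ventricular markers, 2 were called higher (Actc1 and Pln), with summed levels of 22233 to 28537 CPM in WC and 33916 to 43913 in WA. Red cell markers were lower in WA, 4 of 4 called, with summed levels of 115 to 483 CPM against 2916 to 7249 in WC. Of 4 neutrophil markers 1 was called lower (Csf3r), and the 4 summed to 8.70 to 14.3 against 37.2 to 179.6 CPM. Of the 4 atrial markers 3 were tested and 1 called higher (Nppa), and the 4 summed to 751 to 1226 against 50.0 to 117 CPM. Nppa made up most of these sums, at 114, 107 and 48.0 CPM in WC and 603, 1222 and 808 CPM in WA. The others, Myl7, Myl4 and Sln, were at most 2.76 CPM in Ctrl replicate 3 and AngII replicate 3. Of 6 fibroblast markers 3 were called higher, and the 6 summed to 579 to 781 against 453 to 676 CPM. No endothelial marker of 5 was called (summed levels of 630.1 to 764 against 817 to 845 CPM). None of 4 smooth muscle, 4 T and NK cell or 4 adipocyte markers was called. Of 5 macrophage markers 1 was called lower (Csf1r), and the 5 summed to 113 to 145 against 129 to 148 CPM. Of 4 epicardial markers 1 was called lower (Wt1), and the 4 summed to 7.79 to 9.90 against 15.5 to 18.1 CPM. The share of mitochondrially encoded counts overlapped, at 30.3% to 52.6% in WA and 32.05% to 48.3% in WC.

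In the fit of all 9 libraries by title letters, no member and 0% of the 19091 genes tested passed the adjusted p of 0.05 between WA and WC, with 30 of 64 members (46.9%) and 18% of all genes at an unadjusted p under 0.05. The median log2 difference of the members was 0.64 against -0.03 over all genes, and 37 members were higher without overlap and 5 lower, against 16.5% and 17.2% of all genes. DESeq2 called 13 members in this comparison, all higher, and 1.28% of all genes higher. The fit without Kmo_AngII replicate 1 called 21 members higher and 1 lower, against 4.7% and 3.29% of all genes. Hspa1b had the smallest p, with a difference on the log2 scale of 2.33 ± 0.398 (SE, edgeR adjusted p 0.157). Hspa1a was at 2.21 ± 0.379 (SE, edgeR adjusted p 0.157) and Hspb1 at 1.75 ± 0.489 (SE, edgeR adjusted p 0.224). Dnajb1 was at 0.31 ± 0.196 and Hsf1 at -0.19 ± 0.225 (SE, edgeR adjusted p 0.413 and 0.686).

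The 3 Kmo_AngII libraries differed from each other in most members. For the 37 members with WA above WC, each library was placed by the midpoint between the WA and WC means. Kmo_AngII replicate 1 lay on the WA side in 33 cases, replicate 2 in 1 and replicate 3 in 2. Over all genes with WA above WC, these shares were 88.8%, 11.2% and 21.0%, so the members' placement in replicate 1 is close to that of all genes. Hspa1b was lowest in replicate 1 of the Kmo_AngII libraries, while Hspa1a was highest there and lowest in replicate 3. All 3 Kmo_AngII libraries lay above all WC libraries for both genes. Markers of other cells also differed among these libraries: fibroblast and epicardial markers summed to 1867 and 70.5 CPM in replicate 3, against at most 781 and 18.1 CPM in every other library, and neutrophil markers to 316 CPM in replicate 2, against at most 179.6 CPM elsewhere. Their part in the members' values was not tested.

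Between the Kmo_AngII libraries as a group (KKA) and WA, no member and 0% of genes were called, with 8 members (12.5%) and 7.05% of all genes at an unadjusted p under 0.05 by edgeR. The median log2 difference, KKA minus WA, was -0.31, against 0.05 over all genes, and 7 members (Dnaja1, Dnajb1, Dnajb14, Hsp90aa1, Hspa13, Hspa1a and Hsph1) were lower without overlap and 1, Hspa12a, higher, against 2.52% and 5.66% of all genes. Hspa1a had the smallest p, with a difference on the log2 scale of -1.35 ± 0.368 (SE, edgeR adjusted p 0.649). Dnajb1 was at -0.64 ± 0.197, Hspb1 at -0.84 ± 0.479 and Hsf1 at -0.10 ± 0.225 (SE, edgeR adjusted p 0.649, 0.727 and 0.917). Without Kmo_AngII replicate 1, 21 of 64 members (32.8%) were called, all lower, and 4.63% of all genes were called lower. Between KKA and WC, no member and 0% of genes were called, with 4 members (6.25%) and 3.51% of all genes at an unadjusted p under 0.05. The median was 0.22 against 0.05, and 4 members (Dnajc21, Dnajc25, Hspa1a and Hspa1b) were higher without overlap and 1, Hspa12b, lower, against 3.66% and 3.93% of all genes. Hspa1b had the smallest p, at a log2 of 1.301 ± 0.389. Hspa1a was at 0.86 ± 0.368, Hspb1 at 0.91 ± 0.480, Dnajb1 at -0.33 ± 0.196 and Hsf1 at -0.29 ± 0.225 (SE, each with an edgeR adjusted p of 0.995).

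By treatment label, no member was called in any of the 3 comparisons, which share libraries with one another, and neither was any of the 19091 genes (0%). Between AngII and Ctrl, 3 members (Dnajc30, Hspb6 and Hspbap1) had an unadjusted p under 0.05 (edgeR), which is 4.69% of the members and close to the 5.25% of all genes, and none was called by DESeq2 or limma-voom. The median log2 difference of the members was -0.23, against 0.02 over all genes. A negative difference was found for 45 of 64 members and for 9164 of the 19091 genes. With the title letters as a covariate, the median of the members was -0.06. A single member, Hspbap1, was higher without overlap and 6 lower (Dnajb14, Dnajc1, Dnajc4, Dnajc8, Dnajc30 and Hspa2), against 6.44% and 5.74% of all genes. Dnajc30, a mitochondrial DnaJ protein, had the smallest p: it stood at 16.5, 23.3 and 24.6 CPM in Ctrl and 11.4, 12.1 and 13.6 CPM in AngII, with a difference on the log2 scale of -0.79 ± 0.215 (SE, edgeR adjusted p 0.890).

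The members that separated WA from WC were spread widely within AngII and Ctrl. Hspb1 had a mean of 150.3 ± 148 CPM (SD, n = 3) in AngII and 148 ± 63.5 CPM in Ctrl, with a difference on the log2 scale of 0.02 ± 0.729 (SE, edgeR adjusted p 0.999), and without AngII replicate 3 the difference was -1.19. That of Hspa1a was 0.28 ± 0.757 (SE, edgeR adjusted p 0.976) and became -1.31 without AngII replicate 3. The direction of both genes between AngII and Ctrl turned with this 1 library. Dnajb1 and Hsf1 had log2 differences of -0.21 ± 0.209 and -0.08 ± 0.239 (SE, edgeR adjusted p 0.924 and 0.977), and both turned positive (0.45 and 0.57) with library size as the only scaling, under which the median of all genes was 0.67 and that of the members 0.45.

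Between Kmo_AngII and AngII, no member had an unadjusted p under 0.05 by edgeR, against 2.16% of all genes. The median log2 difference was 0.04 against 0.03 over all genes, and 1 member, Dnajc8, was higher without overlap and none lower, against 3.22% and 2.94% of all genes. The log2 differences were -0.23 ± 0.729 for Hspb1, -0.77 ± 0.760 for Hspa1a, -0.38 ± 0.209 for Dnajb1 and -0.15 ± 0.239 for Hsf1 (SE, all with an edgeR adjusted p of 0.9998). Between Kmo_AngII and Ctrl, 2 members, Dnajb1 and Dnajc30, had an unadjusted p under 0.05 (3.12%), close to the 2.79% of all genes. The median was -0.18 against 0.05, with all 12 HSF1-inducible members and all 10 mitochondrial members negative, and none was higher without overlap and 3 lower (Dnajb1, Dnajb14 and Dnajc4), against 4.13% and 2.64% of all genes. With library size as the only scaling this median was 0.21, where that of all genes was 0.37. Hspb1, Hspa1a and Hsf1 had log2 differences, Kmo_AngII minus Ctrl, of -0.21 ± 0.729, -0.48 ± 0.760 and -0.24 ± 0.239 (SE, edgeR adjusted p 0.998 each).

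**Figure D4:**
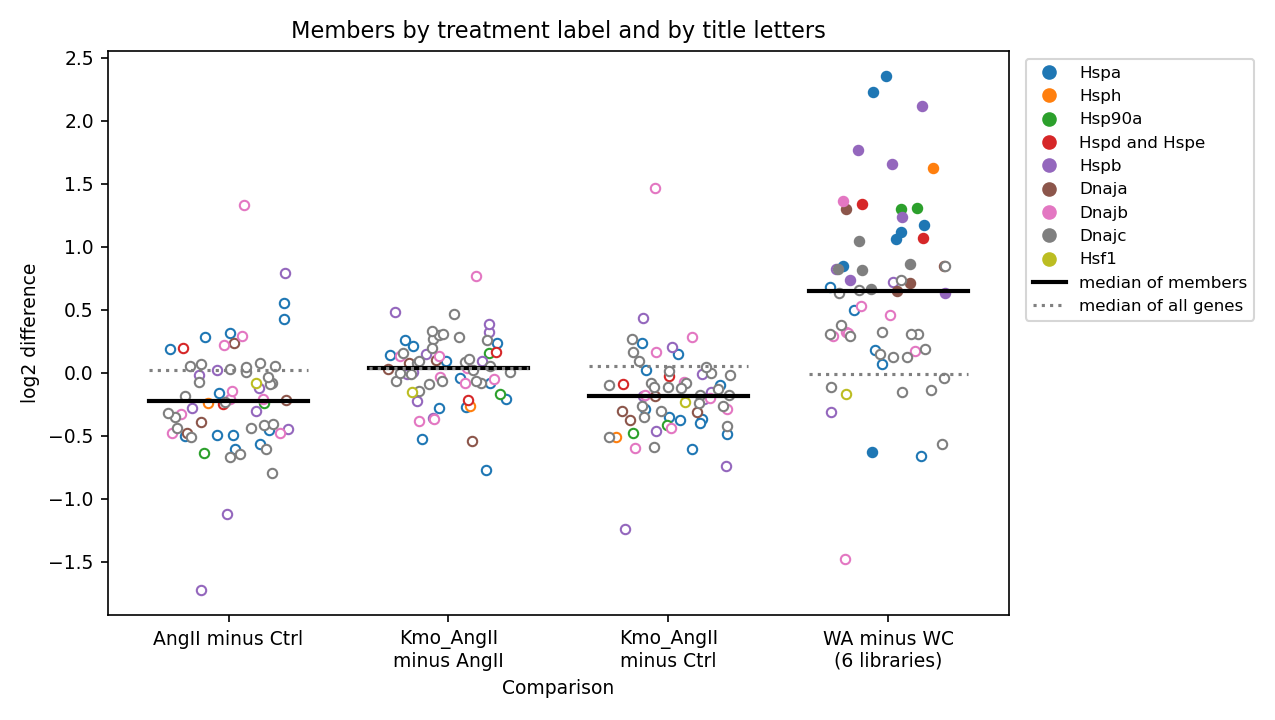
The log2 difference (vertical axis) of each tested member in the 3 comparisons by treatment label and in the comparison of the 6 WA and WC libraries (horizontal axis); color gives the symbol family, filled circles have an edgeR adjusted p under 0.05, black lines are medians of the members and grey dotted lines medians of all genes tested. No circle is filled in the treatment comparisons, where the medians are -0.23, 0.04 and -0.18, and 28 of 63 are filled between WA and WC, where the median is 0.65.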

How the data were processed

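The deposited table holds whole-number counts per Ensembl gene for the 9 libraries, per the file headers. Per the labels' protocols, poly(A) RNA was sequenced as paired ends, and the protocol names an adipose type although the source is heart. Bowtie 0.12.2, HISAT2 2.0, StringTie 1.3.0 and the build mm8 are named, per the submitters' processing notes, without roles. For the counting tool, the annotation and strand use, nothing is stated, so counts of overlapping genes cannot be told apart. Symbols matched 55141 of 55401 genes.

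Members and lists were chosen with earlier results of these data known. Differences were fitted across all genes with edgeR 4.0.16 in R 4.3.3 (TMM, filterByExpr, robust quasi-likelihood F test), with Benjamini-Hochberg adjustment across every gene tested; a call is an adjusted p under 0.05. The SE is the log2 difference divided by the square root of F and restates the test. CPM uses TMM library sizes. No 2 libraries agreed within counting noise (lowest chi-square per degree of freedom 56.6). Replicate numbers follow sample order and pair nothing.

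Named with log2 differences are Hspb1, Hspa1a, Dnajb1, Hsf1 and the member with the smallest p in every comparison, and, between WA and WC in 6 libraries, the 8 highest and 8 lowest called and the smallest p in each family; others were named after their values were seen. Alternatives were DESeq2 size factors, library size alone, other low-count filters, DESeq2 1.42.0, limma-voom 3.58.1, dropping each library in turn, dropping Nppa with the mitochondrial and haemoglobin genes, only the groups compared, and the other grouping as a covariate. Library-size scaling for the overlap counts and the 2-unit motif were chosen later, with the values in view. The fits were tested on simulated data. Promoters are from RefSeq (GRCm38.p6); protein sequences were not used here.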

Additional observations from a re-analysis of the deposited data

How the results depend on the processing

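In the comparison of the 6 WA and WC libraries, Hspa1a, Hspa1b and Hspb1 were called under all 14 alternatives, and no called member changed direction under any. The 28 calls became 27 with DESeq2 size factors, 28 with no low-count filter, 29 with a minimum of 1 CPM in 3 libraries and 31 with DESeq2. They were 28 with limma-voom and 28 without mitochondrial, haemoglobin and Nppa genes. Leaving out 1 library each gave 12 to 28 calls. There were 18, 19 and 15 without Ctrl replicates 1, 2 and 3. Without AngII replicate 2 there were 12, and without AngII replicate 1 or 3 there were 28. The share of all genes called is not set beside these counts, so a change in the members cannot be told from one in all genes. With library size as the only scaling, 4 members were called (Hspa1a, Hspa1b, Hspb1 and Hspb6), and Dnajb1 turned to -0.0114. The median of the members was then 0.31, where that of all genes was -0.32. Under this scaling 14 members did not overlap in place of 41. The share of all genes without overlap is not given for it, so this count has no background. Leaving out 1 library moved the median of the members between 0.56 and 0.72.

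In the fit of 9 libraries, WA minus WC gave 13 calls with DESeq2, 28 with only the 2 groups compared and 0 to 22 without 1 library each, with medians of 0.54 to 0.69; with library size alone the median was 0.32, 15 members did not overlap in place of 42, and Dnajb1 was at -0.0113. KKA minus WA gave 0 to 21 calls without 1 library each (21 without Kmo_AngII replicate 1), and Hsf1 ranged from -0.29 to 0.0546; with library size alone Hsf1 was at 0.0662. Members without overlap under that scaling were 20 for AngII minus Ctrl, in place of 1 higher and 6 lower. All 20 were higher (31.2% against 38.3% of all genes). For Kmo_AngII minus AngII they were 7, all lower (10.9% against 12.1% of all genes). For Kmo_AngII minus Ctrl 1 was higher (1.56% against 10.3% of all genes). KKA minus WA had 0 and KKA minus WC had 1. For these last comparisons and for WA minus WC, the share of all genes under that scaling is not given, so the counts have no background.

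By treatment label no member was called under any alternative, but directions turned. For AngII minus Ctrl, Hspb1 was at -0.33 and Hspa1a at -0.0817 with limma-voom. Without 1 library each, Hspb1 ranged from -1.19 to 0.39, Hspa1a from -1.31 to 0.76 and Hsf1 from -0.25 to 0.0569. With library size alone the members' median was 0.45, Dnajb1 was at 0.45 and Hsf1 at 0.57. For Kmo_AngII minus AngII without 1 library each, Hspb1 ranged from -1.05 to 0.98, Hspa1a from -1.19 to 0.82 and Hsf1 from -0.34 to 0.0171. For Kmo_AngII minus Ctrl, Hspb1 ranged from -1.03 to 0.18, and library size alone gave 0.27 for Hspb1, 0.0889 for Hsf1 and a median of 0.21 for the members. Why these values depend on scaling or on 1 library was not tested. No paired analysis was possible because the labels give no replicate numbers shared between groups.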
